A study of Homo sapiens with 12 samples.

Results

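The genes described here are the cyclins, cyclin-dependent kinases (CDKs), CDK inhibitors, RB and E2F proteins, mitotic kinases, spindle checkpoint proteins, kinesins and cytokinesis proteins that move a cell through its division cycle. They were taken by symbol from the deposited expression table of Huh7 cells, and all 57 listed members were present among its 60666 genes. For the comparison within the list, 18 members were treated as G1/S regulators and 39 as G2/M genes. Huh7 is a human hepatocellular carcinoma cell line. The series compared the control group of these cells with cells in which FAM111B, a serine protease gene, was knocked down by a lentiviral short hairpin RNA (shFAM111B), with 3 RNA-seq libraries in each group. Per the study's methods the knockdown was stable and infected cells were kept under puromycin selection, and the lentiviral controls carried control sequences. The study lists 1 hairpin sequence against FAM111B. The sources used here do not state whether the libraries came from separate cultures, so the p-values below measure only the spread between these libraries. The 6 libraries of a second line, Hep3B, were not analysed here.

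As background, D-type cyclins with CDK4 and CDK6, and then cyclin E with CDK2, phosphorylate RB family proteins in G1, which frees E2F factors to switch on S-phase genes. Genes for mitosis are switched on later, in G2, largely through promoter elements bound by the MuvB core complex with B-MYB and FOXM1, and their products are degraded at the end of mitosis through the anaphase-promoting complex (APC/C). Because most of these transcripts cycle, their level in a bulk sample depends on how many cells are in each phase as well as on the level per cell, and in these libraries fewer dividing cells and less RNA per cell cannot be told apart. No cell counts or phase measurements were among the values used here.

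FAM111B itself was at 7.84, 8.29 and 7.99 TPM in the control libraries and 0.96, 1.13 and 0.84 TPM in the shFAM111B libraries. The groups did not overlap, and the difference was -2.20 ± 0.11 (SE) on the log2 scale (adjusted p = 6.09e-06). Here and below, levels are given as TPM, the share of transcript molecules on a fixed total, a scale already corrected for transcript length, fold changes are differences of log2(TPM + 1) between shFAM111B and control with n = 3 libraries per group, and adjusted p-values come from limma over the 14394 genes that reached 1 TPM in at least 3 of the 6 libraries. A gene was called when it changed at least 2-fold with an adjusted p under 0.05. TPM keep no read depth, so the depth behind each value is unknown. Over all tested genes the median log2 fold change was -0.36, and 3406 genes (23.7%) were called lower against 974 (6.77%) called higher. Under the 4 other ways of scaling that were tried, that median was higher by 0.33 to 0.53, so a member's difference is best read against this shift. Of the Huh7 identity markers all 8 were expressed, and 4 rose and 4 fell (adjusted p under 0.05), with the sign of SERPINA1, one of those that fell, turned under 3 of the 4 other scalings. AFP, the fetal serum protein alpha-fetoprotein, rose by 1.66 on the log2 scale, while APOB was at -2.27 and HNF4A at -1.25, the last at least 2-fold lower under only 1 of the other 4 scalings. The summed level of the 8, at 22182 to 22362 TPM in control and 37706 to 42644 TPM in shFAM111B libraries, was carried mainly by AFP, whose group means were 7274 and 23062 TPM. The 5 fibroblast markers summed to 3.72 to 4.19 TPM in control and 5.61 to 9.02 TPM in shFAM111B libraries, with DCN at 0 in every control library. LUM, at 0.67 to 1.14 TPM in control and 2.27 to 3.31 TPM in shFAM111B libraries, was called higher. Its log2 fold change was 1.01 (adjusted p = 0.00121), and it was also called under all 4 other scalings. PDGFRB ranged from 1.60 to 2.39 TPM and from 2.14 to 4.45 TPM, with overlapping groups (adjusted p = 0.0639). The 4 leukocyte markers summed to 276 to 284 TPM in control and 308 to 341 TPM in shFAM111B libraries, nearly all of it LYZ. CD68 was at 15.0 to 17.6 TPM in control and 21.9 to 23.4 TPM in shFAM111B libraries. Both LYZ and CD68 rose short of 2-fold, by 0.21 and 0.45 on the log2 scale (adjusted p = 0.00708 and 0.0016). CD3E was at most 0.13 TPM. PTPRC, which defines leukocytes, was at most 0.13 TPM in all libraries but control 3, where it was 2.39 TPM.

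Of the 57 members 56 could be tested. CCND2, the cyclin D2 gene, was listed at 0 in 5 libraries and at 0.06 TPM in shFAM111B 3. Among the tested members 22 were called lower and 1 was called higher. Of 39 G2/M genes 18 (46.2%) were called lower and 0 higher, whereas of 17 G1/S regulators 4 (23.5%) were called lower and 1 higher, against the 23.7% of all tested genes. The count of 0 rests on the limit on the fold, since the highest G2/M log2 fold change was 0.78, and a looser p could not change it. It was 3 with median-of-ratios scaling, 2 with upper-quartile scaling, 0 with quantile normalization and 3 with median centring. Under those 4 scalings 11.6% to 17.9% of all tested genes were called higher. With no limit on the size of the change, 29 G2/M genes fell and 4 rose (adjusted p under 0.05), and 10 G1/S regulators fell and 4 rose. Over all tested genes, 50.9% fell and 21.1% rose by that criterion. The shFAM111B libraries lay wholly below the control libraries for 39 members and wholly above them for 8, where over all tested genes these shares were 52.8% and 22.5%, and the groups overlapped for the same 9 members that missed the adjusted p. The median log2 fold change was -0.77 for the G2/M genes and -0.67 for the G1/S regulators. The difference between the lists was not tested. Summed over the members, G2/M levels were 2676 ± 11.1 TPM in control and 2254 ± 18.8 TPM in shFAM111B libraries (SD, n = 3), and G1/S levels were 665 ± 12.4 TPM and 638 ± 9.01 TPM.

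**Figure D1:**
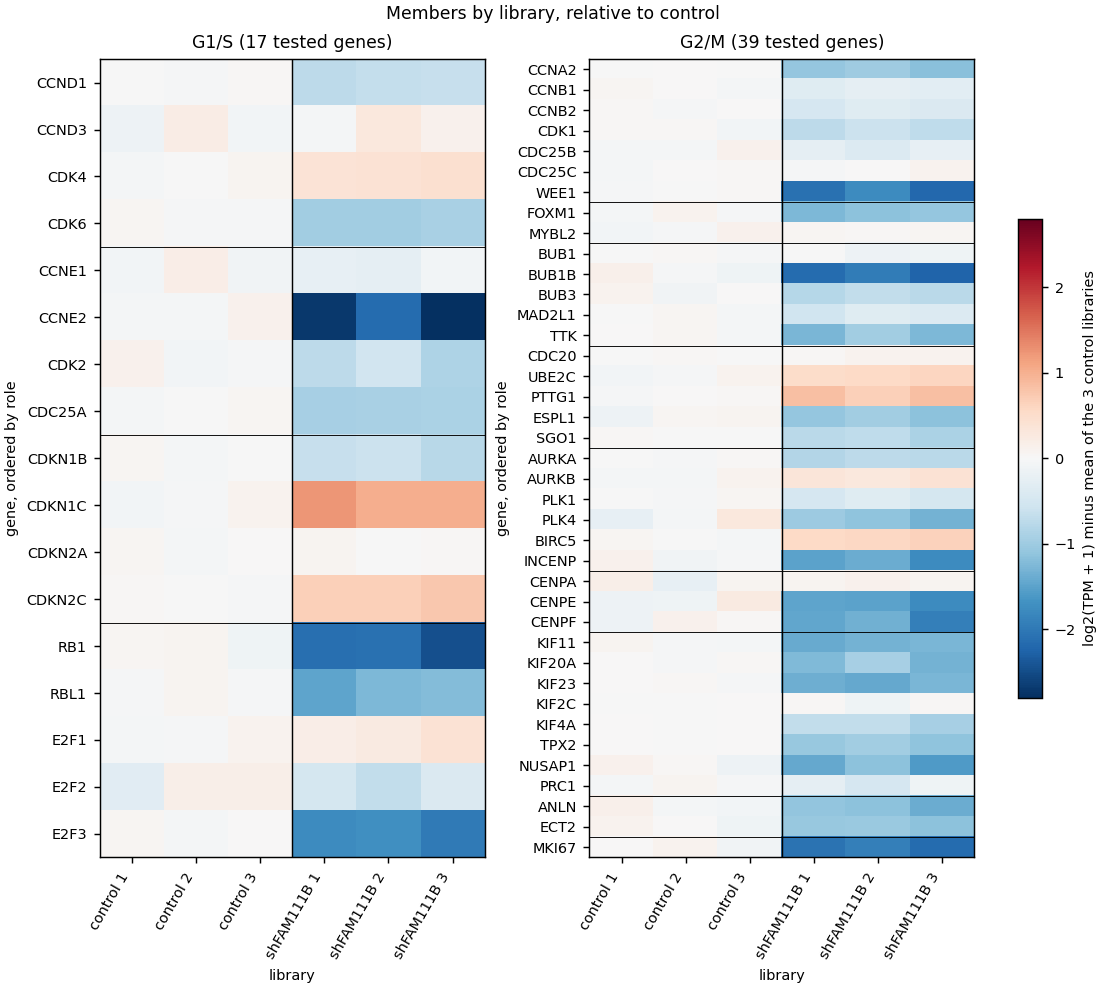
Heat map of the 56 tested members (rows, ordered by role, with lines between roles) in the 6 libraries (columns). Colour is log2(TPM + 1) minus the mean of the 3 control libraries, blue lower and red higher, and CCNE2, RB1, WEE1, BUB1B and MKI67 are among the deepest blue in all 3 shFAM111B libraries.

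Promoter sequences are shown to let the members be compared by what lies upstream of them. Promoter windows of 250 bases before to 50 bases after the transcription start (RefSeq, GRCh38.p14) were matched by symbol for 44 members, 13 G1/S and 31 G2/M. The cell cycle genes homology region (CHR), searched as TTTGAA or TTCGAA on either strand, is the element through which the MuvB core contacts DNA. It was found in a window of 23 of the 31 G2/M genes (74.2%) and of 1 of the 13 G1/S regulators, compared with 16.4% of all 35116 windows and 16.0% of the 10126 tested genes with a window. The letters CCAAT, bound by NF-Y, were found for 26 of the 31 G2/M genes and 6 of the 13 G1/S regulators, against 43.7% of tested genes. An E2F site, searched as TTTCCCGC, TTTGGCGC, TTTCGCGC or TTTGCCGC on either strand, was found for 5 of the 13 G1/S regulators and 3 of the 31 G2/M genes, against 6.72% of tested genes. A gene may have several windows and the letters of neighbouring motifs may overlap. Of the 23 G2/M genes with a CHR, 11 were called lower and 12 were not called, where 23.7% of all tested genes were called lower. Their log2 fold changes went from -2.12 (BUB1B) to 0.09 (CENPA), with a median of -0.78. Of the 8 without one, 3 were called lower and 5 were not, with values from -1.58 (CENPE) to 0.78 (PTTG1) and a median of -0.16. The difference between genes with and without a CHR was not tested. The next 5 stretches of 120 bases lie before the start and outside the exons that GENCODE gives the gene, and were chosen from members with a CHR there. Capitals mark CHR and CCAAT letters, read 5′ to 3′ on the strand of the gene. The first 3 genes were called lower and the last 2 were not.
MKI67, chr10:128126424-128126543, minus strand: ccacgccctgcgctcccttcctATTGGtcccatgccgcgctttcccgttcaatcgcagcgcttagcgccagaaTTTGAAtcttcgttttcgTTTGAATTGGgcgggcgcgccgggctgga
KIF11, chr10:92593010-92593129, plus strand: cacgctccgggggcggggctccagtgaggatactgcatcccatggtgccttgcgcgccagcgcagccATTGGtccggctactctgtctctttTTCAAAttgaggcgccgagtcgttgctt
ESPL1, chr12:53268179-53268298, plus strand: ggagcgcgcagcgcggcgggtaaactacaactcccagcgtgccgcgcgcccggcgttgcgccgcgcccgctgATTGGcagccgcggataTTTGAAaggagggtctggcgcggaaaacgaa
CDC20, chr1:43358835-43358954, plus strand: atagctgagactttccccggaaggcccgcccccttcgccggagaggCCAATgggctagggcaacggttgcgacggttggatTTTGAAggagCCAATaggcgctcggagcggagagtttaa
KIF4A, chrX:70289970-70290089, plus strand: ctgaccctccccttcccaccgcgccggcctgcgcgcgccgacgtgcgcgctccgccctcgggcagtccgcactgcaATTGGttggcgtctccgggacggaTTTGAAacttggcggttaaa

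In these windows the CHR began 47 and 29 bases before the start in MKI67, 28 in KIF11, 31 in ESPL1, 65 in CDC20 and 34 in KIF4A. The same letters thus stood before a gene with a log2 fold change of -2.05 (MKI67) and before one at 0.08 (CDC20). A second pair is shown because E2F3 was called lower and its paralogue E2F2 was not. Capitals here mark the E2F site and, in E2F3, also a CHR. E2F3 has 2 windows, and the one with the site is printed.
E2F3, chr6:20401759-20401878, plus strand: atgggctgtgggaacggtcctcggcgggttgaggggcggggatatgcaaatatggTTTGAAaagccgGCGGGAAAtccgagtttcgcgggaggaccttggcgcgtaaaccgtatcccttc
E2F2, chr1:23531234-23531353, minus strand: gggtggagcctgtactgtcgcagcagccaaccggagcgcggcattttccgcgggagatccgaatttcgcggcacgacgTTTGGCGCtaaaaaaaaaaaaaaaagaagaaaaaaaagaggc

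Among the G1/S regulators, the 5 RB and E2F genes held 3 of the 4 genes called lower, where 23.7% of all tested genes were called lower. RB1 (chr13:48303726-48599436, plus strand, GRCh38) encodes the retinoblastoma protein, the main brake on E2F in G1. It was at 23.0, 23.3 and 20.5 TPM in the control libraries and 4.37, 4.45 and 3.24 TPM in the shFAM111B libraries. Every shFAM111B library lay below every control library, and the difference was -2.22 ± 0.12 (SE) on the log2 scale (adjusted p = 7.99e-06). RBL1, which encodes the related pocket protein p107, was at 5.12, 5.66 and 5.12 TPM in the control libraries and 1.27, 1.65 and 1.73 TPM in the shFAM111B libraries, a difference of -1.31 ± 0.13 (SE) on the log2 scale (adjusted p = 7.73e-05) that stayed negative under every scaling, though at least 2-fold under only 1 of the other 4. E2F3, an activator E2F, was at 12.8, 11.8 and 12.5 TPM in the control libraries and 2.95, 3.09 and 2.38 TPM in the shFAM111B libraries, and the difference was -1.82 ± 0.11 (SE) on the log2 scale (adjusted p = 1.06e-05). The 3 activator E2Fs did not move together. E2F1 was at 43.9, 44.9 and 49.3 TPM in the control libraries and 52.7, 54.9 and 60.7 TPM in the shFAM111B libraries, higher in 3 of 3 shFAM111B libraries (log2 fold change 0.28 ± 0.07 SE, adjusted p = 0.0123). E2F2, at most 3.65 TPM in any library, fell by 0.53 on the log2 scale (adjusted p = 0.0287). That value came to 0.13 once the trend with transcript length and mean expression was removed. Here and below length and expression were removed together, and the part of length alone was not tested.

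The E-type cyclins moved apart. Cyclin E2 (CCNE2) was at 9.39, 9.41 and 10.8 TPM in the control libraries and 0.66, 1.42 and 0.17 TPM in the shFAM111B libraries, and its fold change was the most negative of all tested members (log2 fold change -2.69 ± 0.26 SE, adjusted p = 7.54e-05). Levels in the shFAM111B libraries ranged from 0.17 to 1.42 TPM, so the size of the ratio is poorly fixed while the direction held in 3 of 3 libraries. Cyclin E1 (CCNE1), which activates the same kinase, ranged from 11.3 to 13.9 TPM in control and from 10.0 to 11.5 TPM in shFAM111B libraries. These ranges overlapped, the log2 fold change was -0.19 ± 0.11 (adjusted p = 0.156), and its sign was positive under all 4 other scalings. CDK2, the partner of the E cyclins, and CDC25A, the phosphatase that activates CDK2, fell less than 2-fold, by 0.71 and 0.91 on the log2 scale (adjusted p = 0.000544 and 1.70e-05). Both kept that sign under every scaling, at smaller size. CDK2 was at -0.27 (adjusted p = 0.0514) with median-of-ratios scaling and at -0.17 (adjusted p = 0.155) with median centring. CDC25A lay between -0.51 and -0.37 under the 4 other scalings.

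None of the 4 tested D-type cyclins and their kinases reached 2-fold. Cyclin D1 (CCND1) was at 87.5, 86.5 and 90.4 TPM in the control libraries and 52.3, 55.2 and 56.2 TPM in the shFAM111B libraries, lower in 3 of 3 shFAM111B libraries (log2 fold change -0.68 ± 0.05 SE, adjusted p = 2.39e-05). Under the 4 other scalings the CCND1 log2 fold change lay between -0.52 and -0.15. CDK4 was at 217, 227 and 237 TPM in the control libraries and 298, 303 and 311 TPM in the shFAM111B libraries, and it rose (log2 fold change 0.42 ± 0.05 SE, adjusted p = 0.000183). CDK6, a kinase with the same cyclin partners, lay between 5.38 and 5.78 TPM in control and between 2.33 and 2.47 TPM in shFAM111B libraries, a fall of 0.95 on the log2 scale (adjusted p = 0.000137). After removal of the length and expression trend that difference came to -0.03 (adjusted p = 0.819). CCND3 levels overlapped between the groups (4.0 to 5.38 and 4.27 to 5.69 TPM), and its log2 fold change lay between 0.45 and 0.65 under the 4 other scalings. On the deposited scale CDK4 and CDK6, which serve the same step, thus changed in opposite directions, with CDK4 at least 37.5 times as abundant as CDK6 in every library.

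The CDK inhibitors gave the only member called higher. CDKN1C encodes p57, an inhibitor of the Cip/Kip family. It was at 1.05, 1.10 and 1.31 TPM in the control libraries and 4.06, 3.35 and 3.34 TPM in the shFAM111B libraries. Levels were low in both groups and did not overlap, and the log2 fold change was 1.09 ± 0.13 (adjusted p = 0.000241). CDKN2C encodes p18, an inhibitor of CDK4 and CDK6. It ranged from 6.81 to 7.13 TPM in control and from 11.6 to 12.3 TPM in shFAM111B libraries, and it rose by 0.69 ± 0.08 (SE) on the log2 scale (adjusted p = 0.00019). This was short of 2-fold on the deposited scale and past it under all 4 other scalings and after removal of the length and expression trend. CDKN1B, which encodes p27, moved the other way and was at 33.7, 30.9 and 32.2 TPM in the control libraries and 20.4, 20.8 and 18.4 TPM in the shFAM111B libraries (log2 fold change -0.67 ± 0.07 SE, adjusted p = 0.000132). Under the 4 other scalings that difference lay between -0.28 and -0.14, and with median centring its adjusted p was 0.116. CDKN2A was between 110 and 117 TPM in control and between 113 and 120 TPM in shFAM111B libraries, with overlapping ranges (adjusted p = 0.508). Its log2 fold change lay between 0.02 and 0.57 under the 4 other scalings. The CDKN2A locus encodes p16 and p14ARF from overlapping transcripts, which the table does not separate.

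Among the G2/M genes, CDK1 and its B-type cyclins, which form the kinase that drives entry into mitosis, did not reach 2-fold. CDK1 was at 106, 105 and 97.8 TPM in the control libraries and 61.4, 67.8 and 62.7 TPM in the shFAM111B libraries, a fall short of 2-fold (log2 fold change -0.68 ± 0.06 SE, adjusted p = 4.93e-05). The CDK1 value stayed negative under every scaling, between -0.58 and -0.14, and with median centring its adjusted p was 0.068. Cyclin B1 (CCNB1) was at 152, 147 and 142 TPM in the control libraries and 116, 124 and 119 TPM in the shFAM111B libraries, a log2 fold change of -0.30 ± 0.05 (adjusted p = 0.00121). That sign turned under 3 of the 4 other scalings, as it did for cyclin B2 (CCNB2), at -0.40 ± 0.05. Cyclin A2 (CCNA2), which acts in S phase and G2, was at 58.0, 59.1 and 57.6 TPM in the control libraries and 27.1, 28.7 and 25.5 TPM in the shFAM111B libraries and was called lower (log2 fold change -1.08 ± 0.06 SE, adjusted p = 8.25e-06). The largest difference in this group was that of WEE1, the kinase that holds CDK1 inactive until mitosis (chr11:9573681-9593457, plus strand, GRCh38). It was at 50.6, 50.8 and 52.7 TPM in the control libraries and 11.3, 14.5 and 10.4 TPM in the shFAM111B libraries. The groups did not overlap, and the difference was -2.02 ± 0.12 (SE) on the log2 scale (adjusted p = 8.87e-06). Of the phosphatases that oppose WEE1, CDC25C ranged from 13.7 to 14.5 TPM in control and from 13.9 to 15.4 TPM in shFAM111B libraries (log2 fold change 0.03 ± 0.07, adjusted p = 0.737). CDC25C lay between 0.42 and 0.56 under the 4 other scalings. CDC25B was -0.29 ± 0.07 (adjusted p = 0.0102) with its sign turned under all 4 other scalings.

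Of the mitotic transcription factors, FOXM1 was at 59.1, 65.5 and 60.3 TPM in the control libraries and 25.2, 27.4 and 28.4 TPM in the shFAM111B libraries and was called lower (log2 fold change -1.16 ± 0.07 SE, adjusted p = 1.00e-05). Its fold was under 2 under all 4 other scalings, with the same sign. MYBL2, which encodes B-MYB, lay between 91.0 and 104 TPM in control and between 98.4 and 99.3 TPM in shFAM111B libraries, so that the ranges overlapped (adjusted p = 0.539). Its log2 fold change lay between 0.10 and 0.58 under the 4 other scalings.

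The spindle checkpoint, which delays anaphase until chromosomes are attached, was split. BUB1B (chr15:40161023-40221136, plus strand, GRCh38) encodes BUBR1, a part of the complex that inhibits the APC/C. It was at 55.7, 48.8 and 46.3 TPM in the control libraries and 10.4, 12.2 and 9.84 TPM in the shFAM111B libraries, and its difference was the most negative of the G2/M genes (log2 fold change -2.12 ± 0.10 SE, adjusted p = 5.26e-06). BUB1, a kinase of the same checkpoint whose longest transcript is of similar length (3576 and 3725 nt), ranged from 37.9 to 39.6 TPM in control and from 34.9 to 38.2 TPM in shFAM111B libraries. Its ranges overlapped, with a log2 fold change of -0.10 ± 0.06 (adjusted p = 0.183) that turned positive under all 4 other scalings. The checkpoint kinase gene TTK was at 21.8, 22.4 and 20.8 TPM in the control libraries and 8.27, 10.6 and 8.43 TPM in the shFAM111B libraries and was called lower (log2 fold change -1.17 ± 0.11 SE, adjusted p = 5.72e-05). BUB3 fell by 0.75 on the log2 scale (adjusted p = 4.78e-05). Under the 4 other scalings BUB3 lay between -0.70 and -0.22, and with the length and expression trend removed at -0.14 (adjusted p = 0.0964). MAD2L1 was at -0.42 ± 0.07 (adjusted p = 0.00146), with its sign turned under 2 of the 4 other scalings.

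Of the 5 genes that act at anaphase, 2 rose and 2 fell (adjusted p under 0.05, no fold limit). By that criterion 21.1% of all tested genes rose and 50.9% fell. PTTG1, which encodes securin, the inhibitor of separase, ranged from 233 to 246 TPM in control and from 380.2 to 432 TPM in shFAM111B libraries, a rise of 0.78 ± 0.06 (SE) on the log2 scale (adjusted p = 2.74e-05). Separase itself (ESPL1) was at 16.2, 18.8 and 19.0 TPM in the control libraries and 7.91, 8.60 and 7.57 TPM in the shFAM111B libraries and was called lower (log2 fold change -1.07 ± 0.09 SE, adjusted p = 5.10e-05). UBE2C, the ubiquitin-conjugating enzyme that works with the APC/C, ranged from 195 to 218 TPM in control and from 294 to 311 TPM in shFAM111B libraries and rose by 0.56 ± 0.05 (SE) on the log2 scale (adjusted p = 8.75e-05). With the length and expression trend removed, UBE2C was at -0.13 (adjusted p = 0.0773) and PTTG1 at 0.25 (adjusted p = 0.00819). On that scale ESPL1 was at -0.10 (adjusted p = 0.375). Under the 4 other scalings ESPL1 lay between -0.69 and -0.54, short of 2-fold. CDC20, an activator of the APC/C, lay between 149 and 154 TPM in control and between 154 and 163 TPM in shFAM111B libraries (adjusted p = 0.142). Its log2 fold change lay between 0.007 and 0.61 under the 4 other scalings. SGO1, which protects centromeric cohesin, fell by 0.78 on the log2 scale (adjusted p = 9.01e-05).

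The chromosomal passenger complex joins Aurora B kinase to INCENP and survivin. Its scaffold INCENP was at 25.5, 22.0 and 23.1 TPM in the control libraries and 7.72, 8.38 and 6.22 TPM in the shFAM111B libraries and was called lower (log2 fold change -1.54 ± 0.12 SE, adjusted p = 2.70e-05). Aurora B (AURKB) and survivin (BIRC5) rose, by 0.35 ± 0.06 (SE) on the log2 scale (adjusted p = 0.0014) and by 0.60 ± 0.05 (SE) on the log2 scale (adjusted p = 6.11e-05). BIRC5 levels were 36.9 to 39.9 TPM in control and 57.2 to 60.2 TPM in shFAM111B libraries, and AURKB levels were 153 to 170.0 TPM and 194 to 211 TPM. With the length and expression trend removed BIRC5 was at 0.91 (adjusted p = 1.57e-05) and AURKB at -0.060 (adjusted p = 0.41). Aurora A (AURKA), which acts at spindle poles, fell by 0.76 on the log2 scale (adjusted p = 1.55e-05), from between 61.8 and 64.1 TPM to between 35.4 and 37.6 TPM. PLK1, a kinase with roles from mitotic entry to cytokinesis, was at 65.8, 64.8 and 69.7 TPM in the control libraries and 48.3, 52.7 and 47.4 TPM in the shFAM111B libraries. Its log2 fold change was -0.43 ± 0.06 (adjusted p = 0.000612), and the sign turned under 2 of the 4 other scalings. PLK4, the kinase that starts centriole duplication, was at 13.1, 14.9 and 19.1 TPM in the control libraries and 7.2, 6.56 and 5.60 TPM in the shFAM111B libraries and was called lower (log2 fold change -1.16 ± 0.15 SE, adjusted p = 0.000399).

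Of the centromere genes, CENPE and CENPF were called lower and CENPA, the centromeric histone H3, was not. CENPE, a kinetochore motor, was at 5.89, 5.98 and 7.99 TPM in the control libraries and 1.73, 1.67 and 1.24 TPM in the shFAM111B libraries (log2 fold change -1.58 ± 0.15 SE, adjusted p = 8.82e-05). CENPF was at 52.4, 63.0 and 59.5 TPM in the control libraries and 20.6, 22.3 and 14.8 TPM in the shFAM111B libraries (log2 fold change -1.57 ± 0.15 SE, adjusted p = 8.51e-05). CENPA ranged from 12.1 to 16.1 TPM in control and from 15.2 to 15.7 TPM in shFAM111B libraries, and its groups overlapped (adjusted p = 0.514). Its log2 fold change lay between 0.47 and 0.62 under the 4 other scalings.

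Of the 8 spindle and kinesin genes 5 were called lower, against the 23.7% of all tested genes. That count was 0 under median-of-ratios, upper-quartile scaling and median centring and 3 under quantile normalization (KIF23, TPX2 and NUSAP1). It was 1 with the length and expression trend removed (NUSAP1). Of all tested genes 9.07% to 13.2% were called lower under the 4 other scalings, and 9.14% with the trend removed. KIF11, the motor that pushes spindle poles apart, was at 22.4, 20.8 and 20.4 TPM in the control libraries and 7.41, 7.87 and 8.19 TPM in the shFAM111B libraries (log2 fold change -1.33 ± 0.08 SE, adjusted p = 9.72e-06). KIF20A, a motor of the central spindle, was at 26.9, 26.3 and 27.2 TPM in the control libraries and 10.9, 13.5 and 10.0 TPM in the shFAM111B libraries (log2 fold change -1.16 ± 0.11 SE, adjusted p = 7.12e-05). KIF23, a motor of the centralspindlin complex needed for cytokinesis, was at 67.9, 69.0 and 65.6 TPM in the control libraries and 25.7, 24.4 and 27.3 TPM in the shFAM111B libraries (log2 fold change -1.36 ± 0.06 SE, adjusted p = 4.11e-06). These 3 motors, the kinesins that were called, fell by 1.16 to 1.36 on the log2 scale. None of their groups overlapped, and 52.8% of all tested genes also lay wholly lower. The kinesins KIF4A and KIF2C were not called. TPX2, which activates Aurora A on spindle microtubules, was at 143, 140.0 and 142 TPM in the control libraries and 67.8, 71.2 and 64.0 TPM in the shFAM111B libraries (log2 fold change -1.06 ± 0.05 SE, adjusted p = 5.46e-06). NUSAP1, a microtubule-binding protein, was at 80.3, 75.5 and 67.0 TPM in the control libraries and 26.7, 33.0 and 24.0 TPM in the shFAM111B libraries (log2 fold change -1.39 ± 0.12 SE, adjusted p = 5.58e-05). Of the rest, KIF4A fell by 0.77 on the log2 scale (adjusted p = 0.00017). Under the 4 other scalings KIF4A lay between -0.38 and -0.24, and with the length and expression trend removed at -0.05 (adjusted p = 0.658). KIF2C was at -0.03 with overlapping groups (adjusted p = 0.724), and between 0.31 and 0.51 under the 4 other scalings. PRC1 was at -0.29 (adjusted p = 0.0277), with its sign turned under 3 of the 4 other scalings.

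Both cytokinesis genes were called lower on the deposited scale. Neither reached 2-fold under the 4 other scalings or with the length and expression trend removed. ANLN, which encodes the ring protein anillin, was at 78.3, 68.3 and 67.2 TPM in the control libraries and 32.5, 31.3 and 26.7 TPM in the shFAM111B libraries (log2 fold change -1.21 ± 0.09 SE, adjusted p = 3.00e-05). ECT2, the exchange factor that activates RhoA at the cleavage site, was at 69.0, 64.3 and 59.3 TPM in the control libraries and 30.0, 30.6 and 28.4 TPM in the shFAM111B libraries (log2 fold change -1.08 ± 0.07 SE, adjusted p = 1.41e-05). MKI67 (chr10:128096659-128126385, minus strand, GRCh38) encodes Ki-67, the proliferation marker that coats mitotic chromosomes. It was at 34.7, 36.7 and 32.1 TPM in the control libraries and 7.45, 8.36 and 6.96 TPM in the shFAM111B libraries, and the difference was -2.05 ± 0.09 (SE) on the log2 scale (adjusted p = 4.06e-06). The ratio was 4.14-fold on the log2(TPM + 1) scale.

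**Figure D2:**
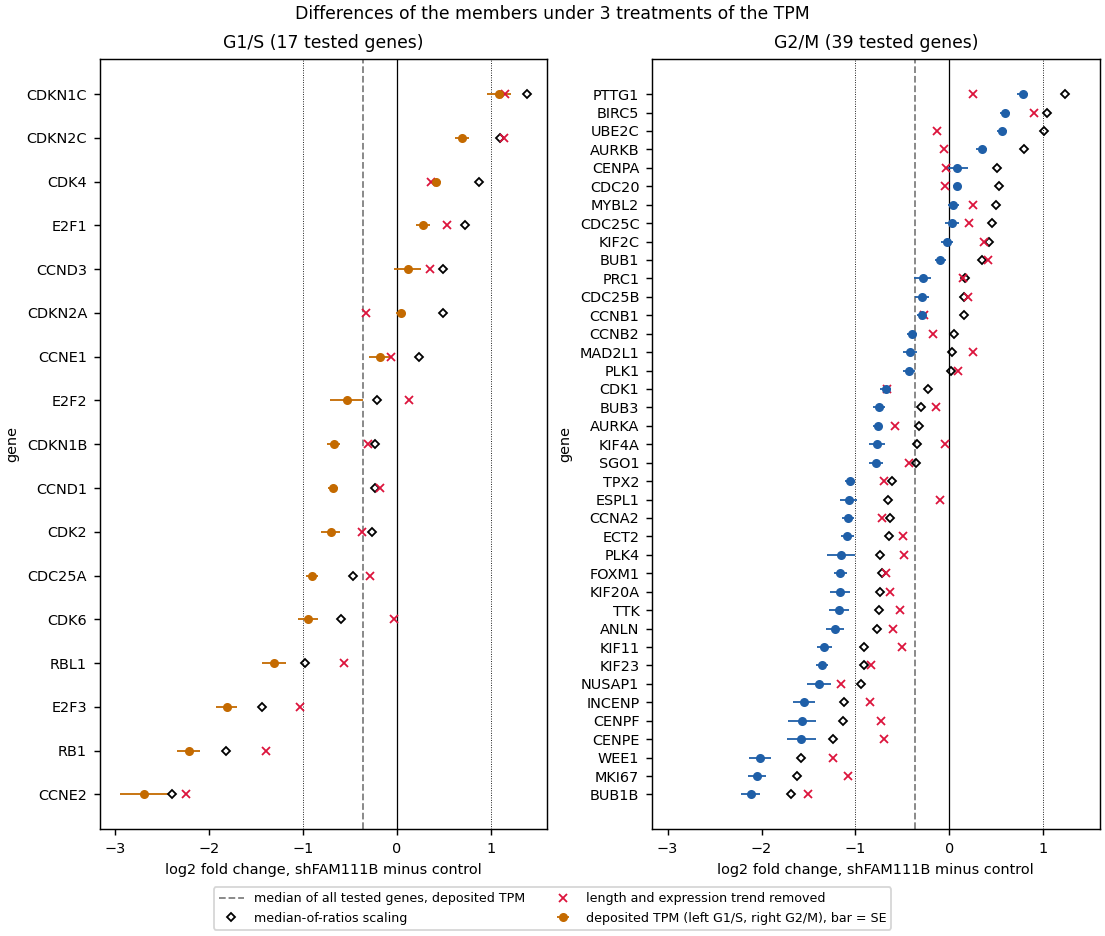
Log2 fold change (x axis, shFAM111B minus control) of the 17 tested G1/S regulators (left) and 39 G2/M genes (right), each gene a row. Filled points are the deposited TPM with SE bars (n = 3 libraries per group), diamonds are median-of-ratios scaling, crosses are values after removal of the trend with length and expression, the dashed line is the median of all tested genes (-0.36) and dotted lines mark 2-fold, with CCNE2, RB1, E2F3, WEE1, BUB1B and MKI67 left of the lower dotted line in every case.

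How far these counts rest on the scale was examined with median-of-ratios scaling, which moved the median of all tested genes to 0.03 and called 14.0% of them higher and 12.4% lower. Under upper-quartile scaling, quantile normalization and median centring 13.2%, 12.8% and 9.07% were called lower and 13.1%, 11.6% and 17.9% higher. On that scale 9 members were called lower, namely CCNE2, RB1, E2F3, WEE1, BUB1B, INCENP, CENPE, CENPF and MKI67. The 5 called higher were CDKN1C, CDKN2C, UBE2C, PTTG1 and BIRC5. By list, 6 of 39 G2/M genes (15.4%) and 3 of 17 G1/S regulators (17.6%) were called lower, in place of 46.2% and 23.5% on the deposited scale. The same 9 genes were called lower under all 4 other scalings. Another 9 genes, all of the G2/M list, were called lower on the deposited scale only (CCNA2, FOXM1, TTK, ESPL1, PLK4, KIF11, KIF20A, ANLN and ECT2). All 22 genes called lower kept their sign under every scaling.

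Transcript length moved with the change. Among all tested genes with an annotated length, the class of up to 1000 nt had a median log2 fold change of 0.43, and the class above 6000 nt one of -0.93. For the members the class medians went from 0.09 at 1000 to 2000 nt (7 genes) to -1.32 above 6000 nt (6 genes). Spearman's rho between length and log2 fold change was -0.672 over the 56 tested members and -0.46 over 14251 tested genes, where genes share libraries and are not independent replicates. With the median length of a gene's coding transcripts in place of the longest, a choice made after seeing the data, rho over the members was -0.665. The short UBE2C (914 nt), PTTG1 (1070 nt) and AURKB (1254 nt) rose, and the long CENPE (8612 nt), CENPF (10307 nt) and MKI67 (12678 nt) fell. The gap between members and their class was widest at 3000 to 4000 nt. Of 12 members between 3000 and 4000 nt, 9 were called lower, against 25.6% of all genes of that class, and their median was -1.16 against -0.49. Among the 17 members between 2000 and 3000 nt, 2 were called lower, against 13.4%, with medians of -0.19 and -0.20. Above 6000 nt, 4 of 6 were called lower, against 45.2%. What lies behind the trend was not tested.

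With the trend in length and expression removed, 9.49% of 14251 genes were called higher and 9.14% lower. On that scale 7 members were called lower, namely CCNE2, RB1, E2F3, WEE1, BUB1B, NUSAP1 and MKI67, and 2 were called higher, CDKN1C and CDKN2C. Among the G2/M genes 4 of 39 were called lower, and among the G1/S regulators 3 of 17. Of all members, 6 were called lower on every scale examined (CCNE2, RB1, E2F3, WEE1, BUB1B and MKI67). The log2 fold change of RB1 was then -1.39 (adjusted p = 6.47e-05), and that for BUB1B was -1.51 (adjusted p = 2.34e-05).

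**Figure D3:**
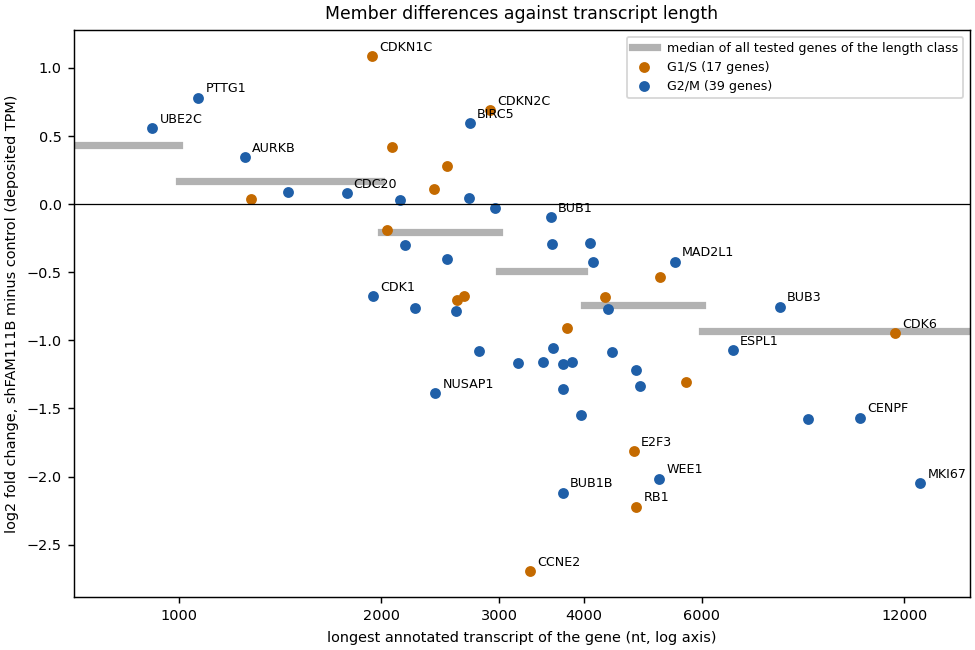
Log2 fold change of the 56 tested members on the deposited TPM (y axis) against the longest annotated transcript (x axis, nt, log scale), G1/S in orange and G2/M in blue. Grey bars are the medians of all tested genes in 6 length classes, from 0.43 at up to 1000 nt to -0.93 above 6000 nt, with CCNE2, RB1, BUB1B and WEE1 far below the bar of their class and BIRC5, CDKN2C and CDKN1C above theirs.

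A ratio of 2 genes in the same library does not depend on a scaling factor of that library. Such ratios are given for 14 pairs that act together or on the same step, chosen after the values were seen and so with no test. In each pair the gene with the higher log2 fold change was put first. That the shFAM111B libraries lay wholly above the control libraries in all 14 thus follows from how the pairs were chosen and ordered, and is no result. The ratio of CCNE1 to CCNE2 was 1.25 ± 0.215 in control and 30.0 ± 32.7 in shFAM111B libraries (SD, n = 3). E2F1 to E2F3 was 3.73 ± 0.274 in control and 20.4 ± 4.45 in shFAM111B libraries (SD, n = 3), and E2F1 to RB1 was 2.08 ± 0.286 in control and 14.4 ± 3.78 in shFAM111B libraries (SD, n = 3). RB1 binds and represses E2F1 at the protein level. In the checkpoint, BUB1 to BUB1B was 0.773 ± 0.073 in control and 3.37 ± 0.445 in shFAM111B libraries (SD, n = 3). In that pair the order of the genes turned, with BUB1B the more abundant in every control library and BUB1 in every shFAM111B library. Securin to separase (PTTG1 to ESPL1) was 13.4 ± 0.864 in control and 51.8 ± 6.63 in shFAM111B libraries (SD, n = 3). In the passenger complex, BIRC5 to INCENP was 1.64 ± 0.0939 in control and 8.0 ± 1.47 in shFAM111B libraries (SD, n = 3), and AURKB to INCENP was 6.79 ± 0.709 in control and 27.7 ± 5.54 in shFAM111B libraries (SD, n = 3). CDC25C to WEE1, the activator and the inhibitor of CDK1, was 0.276 ± 0.00507 in control and 1.23 ± 0.247 in shFAM111B libraries (SD, n = 3), and CCNB1 to CCNA2 was 2.53 ± 0.0815 in control and 4.43 ± 0.214 in shFAM111B libraries (SD, n = 3). The lengths of most partners differ, so these ratios hold the length trend described above. BUB1 and BUB1B are of similar length, and the mean of that ratio was 4.36 times as high in the shFAM111B libraries. How far length enters any of these ratios was not tested.

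**Figure D4:**
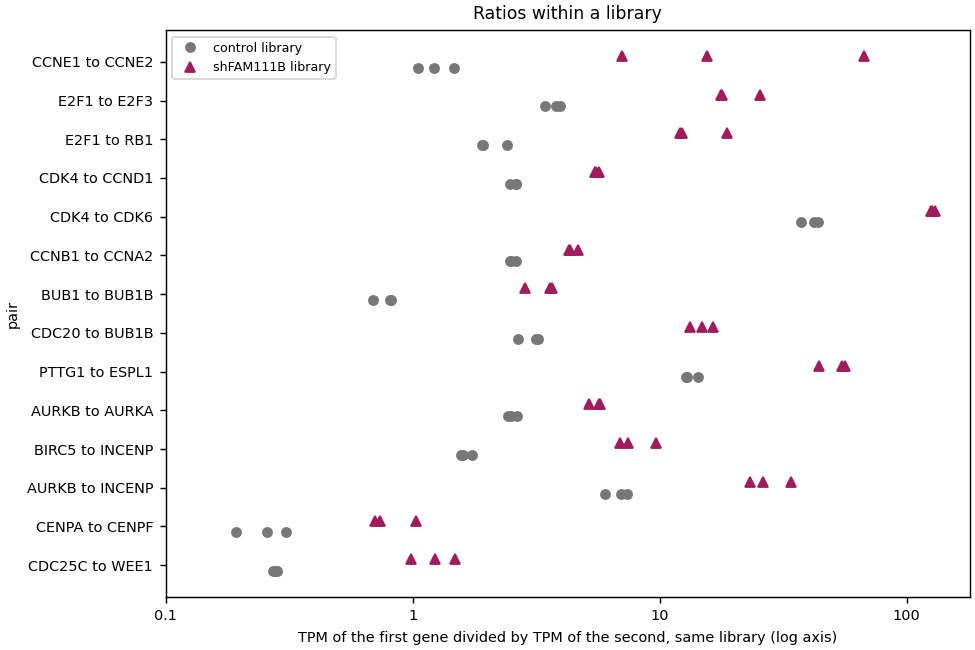
Ratio of the TPM of 2 genes within a library (x axis, log scale) for 14 pairs (y axis). Grey circles are the 3 control libraries and purple triangles the 3 shFAM111B libraries. Pairs were chosen after the values were seen, with the gene of the higher log2 fold change first, so all triangles lie to the right by choice. The ratios of group means go from 1.75-fold for CCNB1 to CCNA2 to 24.0-fold for CCNE1 to CCNE2.

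Other genes of the same pathway were counted by complex. Of 14 cohesin and condensin genes, which hold and shape chromosomes, 12 were called lower and 0 higher, with a median of -1.54, against the 23.7% and 6.77% of all tested genes. The count called lower was 7 or 8 under the 4 other scalings, where 9.07% to 13.2% of all tested genes were called lower. SMC1A was at 60.3, 55.7 and 57.2 TPM in the control libraries and 12.6, 13.6 and 11.0 TPM in the shFAM111B libraries (log2 fold change -2.14 ± 0.09 SE, adjusted p = 3.15e-06), and SMC4 was at 78.8, 72.0 and 79.5 TPM in the control libraries and 23.5, 24.6 and 23.1 TPM in the shFAM111B libraries (log2 fold change -1.65 ± 0.06 SE, adjusted p = 2.89e-06). Their median length was 5505 nt, against 3212 nt for all tested genes. With the length and expression trend removed 2 of the 14 were called lower, against 9.14% of all tested genes. DREAM represses cell cycle genes in resting cells and contains the MuvB core. Of 10 genes of DREAM and MuvB, 5 were called lower and 0 higher on the deposited scale, against the same 23.7% and 6.77%. The count called lower was 1 or 2 under the 4 other scalings and 1 with the length and expression trend removed. Of all tested genes 9.07% to 13.2% were called lower under those scalings, and 9.14% with the trend removed. RBL2, the pocket protein p130, was at 11.9, 12.0 and 11.2 TPM in the control libraries and 1.99, 2.53 and 1.62 TPM in the shFAM111B libraries (log2 fold change -2.07 ± 0.13 SE, adjusted p = 1.31e-05). LIN54, the MuvB subunit that binds the CHR, was at 10.8, 9.05 and 8.14 TPM in the control libraries and 2.95, 2.76 and 2.83 TPM in the shFAM111B libraries (log2 fold change -1.42 ± 0.12 SE, adjusted p = 4.70e-05). It was under 2-fold with quantile normalization (-0.96), with median centring (-0.88) and with the length and expression trend removed (-0.53). Thus RB1, RBL1 and RBL2, the 3 genes of the pocket protein family, were each called lower on the deposited scale. RB1 and RBL2 were also called lower under all 4 other scalings and with the length and expression trend removed. RBL1 was called under only 1 of those scalings, with a log2 fold change of -0.56 once the trend was removed.

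Of 23 other kinetochore genes 5 were called lower (21.7%) and 1 higher (4.35%), shares near the 23.7% and 6.77% of all tested genes. The count called lower was 2 or 3 under the 4 other scalings and 1 with the length and expression trend removed. Of all tested genes 9.07% to 13.2% were called lower under those scalings, and 9.14% with the trend removed. NSL1, of the MIS12 complex, was at 34.4, 34.0 and 34.9 TPM in the control libraries and 5.84, 6.44 and 4.02 TPM in the shFAM111B libraries (log2 fold change -2.48 ± 0.15 SE, adjusted p = 9.79e-06), and CENPO was at 27.8, 24.4 and 23.6 TPM in the control libraries and 10.3, 10.3 and 9.83 TPM in the shFAM111B libraries (log2 fold change -1.23 ± 0.08 SE, adjusted p = 1.60e-05). NSL1 was called lower under all 4 other scalings, at -2.10 to -1.95, whereas CENPO stayed under 2-fold in each, at -0.84 to -0.70. Of 15 APC/C subunits 2 were called lower (13.3%) and 2 higher, against the same background. Under the 4 other scalings 1 was called lower and 1 or 3 higher, against 9.07% to 13.2% and 11.6% to 17.9% of all tested genes. ANAPC1, the largest subunit, was at 22.6, 20.4 and 20.0 TPM in the control libraries and 6.36, 6.77 and 6.27 TPM in the shFAM111B libraries (log2 fold change -1.56 ± 0.08 SE, adjusted p = 6.92e-06), and the small subunit CDC26 was at 43.2, 36.7 and 40.3 TPM in the control libraries and 99.7, 92.9 and 109.8 TPM in the shFAM111B libraries (log2 fold change 1.31 ± 0.09 SE, adjusted p = 1.39e-05). Both kept at least 2-fold under all 4 other scalings and fell short of it with the length and expression trend removed, at -0.53 and 0.62. Of 11 S-phase genes that E2F activates, 2 were called lower (18.2%) and 0 higher, with a median of -0.45. That median depended on the scaling. It was 0.01 with median-of-ratios scaling, -0.03 with upper-quartile scaling, -0.54 with quantile normalization and 0.09 with median centring. With the length and expression trend removed it was -0.20. The count called lower was 2 with quantile normalization and 0 under the other 3 scalings and with the trend removed. RRM2, a subunit of ribonucleotide reductase, was at 124, 112 and 111 TPM in the control libraries and 57.2, 53.6 and 47.0 TPM in the shFAM111B libraries (log2 fold change -1.13 ± 0.08 SE, adjusted p = 2.49e-05). MCM4, of the replicative helicase, was at 144, 175 and 153 TPM in the control libraries and 75.0, 69.6 and 78.6 TPM in the shFAM111B libraries (log2 fold change -1.07 ± 0.08 SE, adjusted p = 3.10e-05). Both were under 2-fold under 3 of the 4 other scalings and with the length and expression trend removed.

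Some members share sequence with a neighbour or a copy. Counting both strands, exons of 25 members overlap those of another gene, and whether the counting used strand is not given in the sources used here. The exons of 6 members overlap exons of another gene on the same strand. BUB1B-PAK6, which overlaps BUB1B, was listed at 0 in all libraries. AC087721.2, which overlaps NUSAP1, averaged 53.1 TPM in control and 28.5 TPM in shFAM111B libraries, and AC068831.7, which overlaps PRC1, averaged 38.3 and 17.1 TPM. SLC35F6, which overlaps CENPA, averaged 13.3 and 21.8 TPM. How reads were shared between these genes is not given in the sources used here, so the levels of NUSAP1, PRC1 and CENPA are uncertain to that extent. The 24 annotated copies and pseudogenes of members reached at most 0.64 TPM (AURKAP1).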

How the data were processed

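RNA-seq libraries of Huh7 cells (3 control, 3 shFAM111B) were grouped by GEO's labels. Per the labels, poly(A) RNA was used with a stranded kit, and the submitters' processing notes name hg38, RSEM and DESeq2 without versions. The TPM values were computed and deposited by the authors, together with their own group means and fold changes and p-values, which were not used. No sample's column was left unmatched. From the TPM, limma 3.58.1 (R 4.3.3) was fitted on log2(TPM + 1) with a mean-variance trend, with genes kept at 1 TPM or more in at least 3 of the 6 libraries and Benjamini-Hochberg adjustment over 14394 genes. The deposited TPM summed to 994314 to 997094 in control and 978634 to 994115 in shFAM111B libraries. Because TPM are shares of a total, a rise of a few abundant transcripts lowers the values of all others, so the scale was varied: median-of-ratios, upper-quartile, quantile and median centring, and removal by loess of the trend with length and mean expression. Lengths, exons and overlaps came from GENCODE release 29 (GRCh38). Values in every library are given for called members and for 11 listed genes whatever their result, others as ranges and counts, and of the other lists the 2 genes with the smallest p. The members, lists and tests were chosen with earlier results of these data known.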

Additional observations from a re-analysis of the deposited data

How the results depend on the processing

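Of the 22 members called lower, 22 kept their sign under every alternative tried, and 9 stayed called under all 4 other scalings. Leaving out any library changed no member's call. The count of genes called higher was 2016 with median-of-ratios scaling, 1884 with upper-quartile scaling, 1673 with quantile normalization and 2574 with median centring, and 634 with 1 TPM required in every library. The count called lower was 1792, 1905, 1846 and 1305 under those 4 scalings and 1302 with the trend in length and expression removed. The share of calls that were higher went from 22.2% to between 47.5% and 66.4%. With no limit on the fold change, 3044 genes were higher and 7326 lower. G1/S members called higher numbered 2 under each scaling and with the trend removed, and 4 with no fold limit, where 10 were lower. G2/M members called higher numbered 3, 2 and 3 under median-of-ratios, upper-quartile and median centring and 4 with no fold limit, and those called lower numbered 6, 6, 9 and 6 under the 4 scalings, 4 with the trend removed and 29 with no fold limit.

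The G1/S median was -0.23, -0.27, -0.24 and -0.14 under the 4 scalings (in the order above), -0.18 with the trend removed, -0.60 with 1 TPM in every library, -0.70 with a pseudocount of 0.1, and -0.695 to -0.625 without single libraries. The G2/M median was -0.34, -0.38, -0.56 and -0.24 under the scalings and -0.43 with the trend removed.

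Signs turned only for members short of 2-fold. With median-of-ratios scaling the log2 fold changes were CCNE1 0.23, CCNB1 0.16, CCNB2 0.047, CDC25B 0.16, BUB1 0.35, MAD2L1 0.024, PLK1 0.021, KIF2C 0.42 and PRC1 0.17. With upper-quartile scaling they were CCNE1 0.19, CCNB1 0.12, CCNB2 0.0071, CDC25B 0.12, BUB1 0.31, KIF2C 0.38 and PRC1 0.13. With quantile normalization they were CCNE1 0.34, CDC25B 0.022, BUB1 0.26 and KIF2C 0.31. With median centring they were CCNE1 0.35, CCNB1 0.24, CCNB2 0.13, CDC25B 0.24, BUB1 0.44, MAD2L1 0.11, PLK1 0.11, KIF2C 0.51 and PRC1 0.25. With the trend removed they were CDKN2A -0.33, E2F2 0.13, CDC25B 0.20, BUB1 0.42, MAD2L1 0.25, CDC20 -0.043, UBE2C -0.13, AURKB -0.060, PLK1 0.093, CENPA -0.032, KIF2C 0.37 and PRC1 0.14. Leaving out 1 library at a time gave CDC25C -0.0094 to 0.058, CENPA -0.032 to 0.16 and KIF2C -0.053 to 0.026. The cause was not tested.

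With the replicate block, 983 genes were higher and 3402 lower, with 1 and 4 G1/S and 0 and 18 G2/M members. Deviations of same-numbered libraries correlated at 0.054, 0.035 and 0.091, so the numbers were not taken as pairs. TPM carry no depth, so counting error for low members such as CDKN1C and CCNE2 is unknown.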
